A study of Mus musculus with 13 samples.

Results

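H3K27me3 regions of moderate length that lie at gene promoters and were called in both genotypes were followed in mouse embryonic stem cells (ESCs) lacking SAFB and SAFB2. A region belonged to the set if it stood in the authors' list of regions shared by both genotypes, was at least 1 kb and under 5 kb long, lay on an autosome other than chromosomes 6 and 11, and overlapped by at least 1 bp a promoter row, which reaches 2000 bp before and 1000 bp past a transcription start. In all, 4739 of the 57909 regions met the rule, out of 28174 shared regions. They lie on 17 chromosomes and touch 7508 promoter rows of 4830 genes. The rule used no difference between the genotypes, but being called in both genotypes limits how far a region can have changed.

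The cells are a male ESC line that combines CAST and B6 mouse genomes, with a recombination cassette (RMCE) at Rosa26 on chromosome 6. WT and safb1/2 double ko (DKO) cells alike had 3 days of doxycycline and were fixed in 0.6% formaldehyde. H3K27me3 was measured in 5 WT and 4 DKO libraries and total H3 in 2 of each genotype. DKO replicate 1 for H3K27me3 was clone 4 and the other DKO libraries were clone 13, so the DKO group stands for 2 clones. WT replicates 1, 4 and 5 share a library name stem, while replicates 2 and 3 have others. The labels mark WT replicate 4 and DKO replicate 3 as Old, and WT replicate 5 and DKO replicate 4 as New. The sources used here do not say what the words mean. The libraries so marked are all of clone 13 or of the shared WT stem, while the unmarked ones include clone 4 and the other stems. A difference between marked and unmarked libraries therefore cannot be told apart from clone or stem. Separate cultures are not stated for the replicates, and the p-values below therefore reflect the spread among libraries, part of which may be technical. H3K27me3 counts cannot check the genotype labels. In bulk libraries, less mark in each cell and the mark in fewer cells cannot be told apart.

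H3K27me3 is written by Polycomb repressive complex 2, whose catalytic subunit is EZH1 or EZH2, and is read by a form of Polycomb repressive complex 1 that carries a CBX protein. In ESCs the mark sits over CpG-rich promoters of genes that are silent or lowly expressed, many of which encode regulators of later development, and variant Polycomb repressive complex 1 is brought to such CpG islands by KDM2B. Broad domains cover gene clusters such as Hox, while shorter regions like those described here cover single promoters. SAFB and SAFB2 are paralogous nuclear proteins that bind RNA and scaffold-attachment DNA.

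The promoter sequences of the genes at the 2 largest rises, the 2 largest falls and the 2 highest levels are shown to set the regions beside their base composition. Genes without a usable RefSeq window were passed over. Each window runs from 250 bases before to 50 after the RefSeq start (assembly GRCm38.p6), 5′ to 3′ on the strand of the gene, with every CG in capitals. Dusp6 is at chr10:99262981-99263280 (+), Ptch1 at chr13:63565686-63565985 (-), Epcam at chr17:87635729-87636028 (+), Arpc1b at chr5:145114006-145114305 (+), Misp3 at chr8:84011671-84011970 (-) and Gm13271 at chr4:88754618-88754917 (+).
Dusp6: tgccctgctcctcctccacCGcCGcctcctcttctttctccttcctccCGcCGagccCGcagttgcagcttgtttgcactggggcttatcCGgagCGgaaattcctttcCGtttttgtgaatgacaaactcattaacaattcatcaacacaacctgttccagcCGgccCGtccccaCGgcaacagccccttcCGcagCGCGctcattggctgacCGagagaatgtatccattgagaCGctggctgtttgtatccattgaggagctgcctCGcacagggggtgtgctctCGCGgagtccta
Ptch1: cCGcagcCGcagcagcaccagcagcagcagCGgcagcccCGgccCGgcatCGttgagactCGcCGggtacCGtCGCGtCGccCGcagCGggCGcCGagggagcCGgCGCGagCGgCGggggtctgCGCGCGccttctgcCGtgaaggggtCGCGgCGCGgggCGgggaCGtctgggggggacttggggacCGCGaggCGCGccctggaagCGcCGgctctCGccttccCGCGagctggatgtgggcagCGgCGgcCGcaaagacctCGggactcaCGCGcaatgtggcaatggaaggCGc
Epcam: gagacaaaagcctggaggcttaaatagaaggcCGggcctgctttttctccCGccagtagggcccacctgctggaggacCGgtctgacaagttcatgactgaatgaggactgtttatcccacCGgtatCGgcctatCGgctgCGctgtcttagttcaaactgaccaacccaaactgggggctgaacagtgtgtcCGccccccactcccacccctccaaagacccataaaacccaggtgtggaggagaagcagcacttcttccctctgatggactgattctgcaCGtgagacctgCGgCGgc
Arpc1b: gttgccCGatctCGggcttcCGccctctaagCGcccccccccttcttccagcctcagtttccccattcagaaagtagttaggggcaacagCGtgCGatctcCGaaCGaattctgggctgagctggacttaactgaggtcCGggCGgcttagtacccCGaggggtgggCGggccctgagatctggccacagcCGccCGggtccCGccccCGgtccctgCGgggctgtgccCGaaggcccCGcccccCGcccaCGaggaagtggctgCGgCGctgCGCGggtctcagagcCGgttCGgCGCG
Misp3: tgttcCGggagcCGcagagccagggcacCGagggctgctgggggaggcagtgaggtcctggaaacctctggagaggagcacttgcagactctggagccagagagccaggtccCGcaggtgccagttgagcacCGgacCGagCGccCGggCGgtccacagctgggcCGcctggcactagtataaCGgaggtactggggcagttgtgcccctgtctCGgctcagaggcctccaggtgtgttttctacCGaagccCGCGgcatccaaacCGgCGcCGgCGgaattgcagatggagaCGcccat
Gm13271: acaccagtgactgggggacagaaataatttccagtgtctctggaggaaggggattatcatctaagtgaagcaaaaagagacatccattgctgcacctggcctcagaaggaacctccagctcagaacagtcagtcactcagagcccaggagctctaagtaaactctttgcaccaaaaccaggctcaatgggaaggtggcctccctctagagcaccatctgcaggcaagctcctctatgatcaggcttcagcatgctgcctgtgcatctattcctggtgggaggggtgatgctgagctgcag

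The windows of Ptch1 and Arpc1b hold 47 and 29 CG pairs, and those of Misp3 and Dusp6 hold 20 and 19. The Epcam window has 11 and the Gm13271 window 0. The counts thus differed within the rises, the falls and the highest levels. Both rises had an observed over expected CpG ratio above 0.6, at 0.8 for Dusp6 and 1.09 for Ptch1. The Ptch1, Misp3 and Gm13271 windows overlap their H3K27me3 regions, while the regions of Dusp6, Arpc1b and Epcam begin 197, 140 and 835 bp beyond the window.

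Across the set, promoters were rich in CpG. Of the 3910 regions with a protein-coding gene off chromosome 18, 3197 (81.8%) had a RefSeq window. Of these windows, 1518 lay in or touched their region, and the median distance was 26 bp. RefSeq starts and promoter rows can differ: 26552 of 38281 rows matched by symbol began within 100 bp of a RefSeq start. Their median GC content was 63.7%, against 52.7% over all 32851 windows, and their median number of CG pairs in 300 bases was 20, against 7. An observed over expected CpG ratio of 0.6 or more was found in 62.8% of them, against 35.8% of all windows. GGGCGG, the core of the GC box, occurred on either strand in 66.9% against 35.7%, TATAAA in 7.76% against 13.6%, CCAAT in 32.8% against 37.4%, the E-box CACGTG in 8.29% against 7.15% and GAGAG in 63.3% against 62.0%. All windows, unlike those of the set, were not limited to protein-coding genes. How much of each gap comes from gene type was not tested. These shares are descriptions of letters in the windows, and GGGCGG itself holds a CG pair.

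The libraries held 1818647 to 3134799 counts over all regions for H3K27me3 and 525847 to 736566 for total H3, so that a region of the set had a median of 43 to 78 H3K27me3 counts and 15 to 20 H3 counts per library. The region tests therefore had more precision for H3K27me3 than for H3. As a check of the cell type, promoter rows of Nanog and Actb, active in ESCs, were at 0 CPM (counts scaled to the library total after TMM correction) in WT and Pou5f1 was at 4.94, against 451 for Hoxd10 and 349 for T, genes of later development. Some genes went the other way: Esrrb, a pluripotency gene, was at 35.9 CPM, and Gata4, a gene of later development, was below it at 19.5 CPM. Reads in several rows were not assigned, so a 0 at a gene with more than 1 row, such as Nanog or Actb, can come from the counting, and these values check the cell type only in part. WT replicate 1 stood apart from the other WT libraries in the share of its region counts that lay in the set, 16.2% against 14.5% to 14.9%. Some results that depend on it are also given without it.

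The shared promoter regions held 15.0% ± 0.644 (SD, n = 5) of region counts in WT and 15.4% ± 0.388 (SD, n = 4) in DKO. The WT mean includes WT replicate 1 at 16.2%, and the other WT libraries held 14.5% to 14.9%. The DKO libraries held 14.9% to 15.8%. Total H3 placed 14.8% of WT and 14.6% of DKO counts in them. The median log2 ratio of H3K27me3 CPM to H3 CPM was -0.17 in WT and -0.09 in DKO. Shares and ratios are over all regions, which were themselves called for the mark. A ratio near 0 therefore places the set near the average of marked regions, and gives no level against unmarked chromatin. Regions of chromosomes 6 and 11 enter the denominator, and without them the set took 21.6% of WT and 22.2% of DKO H3K27me3 counts.

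Of the 4739 regions, 2358 cover at least 1 start site. Among the others, 1135 lie upstream and 1246 downstream of the nearest start whose row they touch. Such a region can lie on the other side of a second start. Most regions, 3811, touch the promoter of 1 gene, and 928 touch those of 2 or more. Where promoters share a region, the counts cannot be assigned to one gene. The level of H3K27me3 in WT had a median of 11.6 CPM per kb, a scale that corrects for region length and allows comparison between regions. Regions covering a start had a median of 12.6 CPM per kb, those downstream 11.4 and those upstream 10.3.

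The highest level in WT belonged to the region over Misp3 and Mir1199 (chr8:84009693-84014501), at 62.5 CPM per kb. Its WT libraries held 264, 328, 309, 308 and 294 CPM and its DKO libraries 255, 270, 284 and 216 CPM. The ranges overlap, with 2 DKO libraries below every WT library. The next levels were at Gm13271 (60.5 CPM per kb), at Vgf, the gene of a secreted neuropeptide precursor (58.2), at Cdk5r2, an activator of the neuronal kinase CDK5 (57.7), at Gm10582 (57.5) and at Smpd3, a neutral sphingomyelinase (49.5). Neighbours in this order differ by little beside their spread: Gm13271 held 86.9 ± 11.2 CPM and Gm10582 held 81.8 ± 3.55 CPM (SD, n = 5) in regions of 1436 and 1422 bp. Both lie within one stretch of predicted genes of chromosome 4, where reads from near-identical copies could be split or lost in counting.

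Among these 6, Cdk5r2 fell by 0.29 on the log2 scale (SE 0.08, edgeR quasi-likelihood test, Benjamini-Hochberg adjusted p = 0.0211), from 203, 205, 156, 203 and 171 CPM in WT to 173, 166, 135 and 140 CPM in DKO. Misp3 and Mir1199 fell by 0.23 (SE 0.07, adjusted p = 0.0442). The log2 differences at Gm13271 (-0.05, SE 0.10), Vgf (-0.11, SE 0.09), Gm10582 (-0.04, SE 0.10) and Smpd3 (-0.19, SE 0.08) did not pass. The Misp3 call did not hold without any one of 7 libraries (all but WT replicate 1 and DKO replicate 3), where adjusted p ran from 0.0731 to 0.279. That of Cdk5r2 needed WT replicates 2 and 4 and DKO replicates 3 and 4 each, with adjusted p from 0.0707 to 0.172.

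The main comparison asked where H3K27me3 differed between DKO and WT. Promoter regions of genes that restrain receptor tyrosine kinase and ERK signalling, Spry4, Dusp6 and Spred1, gained the mark, as did the Hedgehog receptor gene Ptch1 and the AP-1 gene Junb. Regions at Epcam, Arpc1b, Arhgap22 and the immune genes Nlrc5 and Nfkbid held less of it in DKO. Among these falls, only the call at Nfkbid held without each single library. The calls at Epcam and Arpc1b were also lost with DESeq2, an alternative test. In total 52 regions rose (1.1%) and 54 fell (1.14%) at an adjusted p under 0.05, or 2.24% of the set, beside 4.03% of the 40418 regions tested over the genome (2.16% higher and 1.88% lower). Nearly all of the set lay close to no change: the median log2 fold change was -0.01 in the set and -0.02 over all regions tested, and 5th and 95th percentiles in the set were -0.31 and 0.36. All 4739 regions passed the filter on low counts.

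The split between rises and falls moved with the scaling. With library totals in place of TMM factors it was 105 rises and 29 falls, and with factors computed off chromosomes 6 and 11 it was 32 rises and 84 falls. Single libraries moved the number as well. When WT replicate 1 was left out, 117 regions rose and 69 fell, 186 in all. The total fell to 57 when WT replicate 5 was left out, and to 44 and 42 for DKO replicates 2 and 3.

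**Figure D1:**
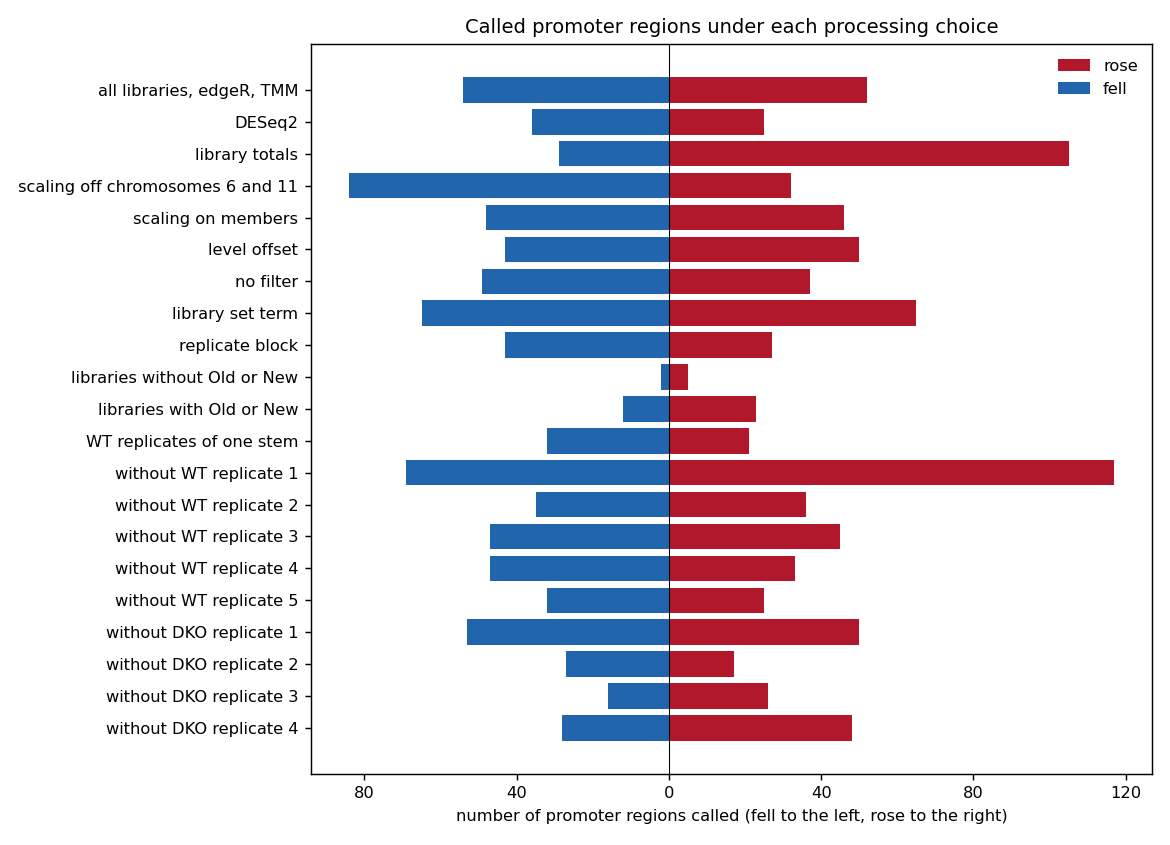
Number of shared promoter regions called (x axis; falls drawn to the left of 0 and rises to the right) under each processing choice (y axis). The top bar is the reported fit with 54 falls and 52 rises; library totals gave 29 and 105, and leaving out WT replicate 1 gave 69 and 117.

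Rises ran from 0.34 to 1.15 on the log2 scale (median 0.62) and falls from -0.23 to -0.85 (median -0.43). The risen regions had a median WT level of 8.32 CPM per kb and the fallen regions 19.9 CPM per kb. The libraries of both genotypes did not overlap at 32 of the 52 risen and 31 of the 54 fallen regions. Over all regions tested, every DKO library lay above every WT library in 3.36% and below in 3.40%, and in the set in 2.30% each way (109 regions each).

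**Figure D2:**
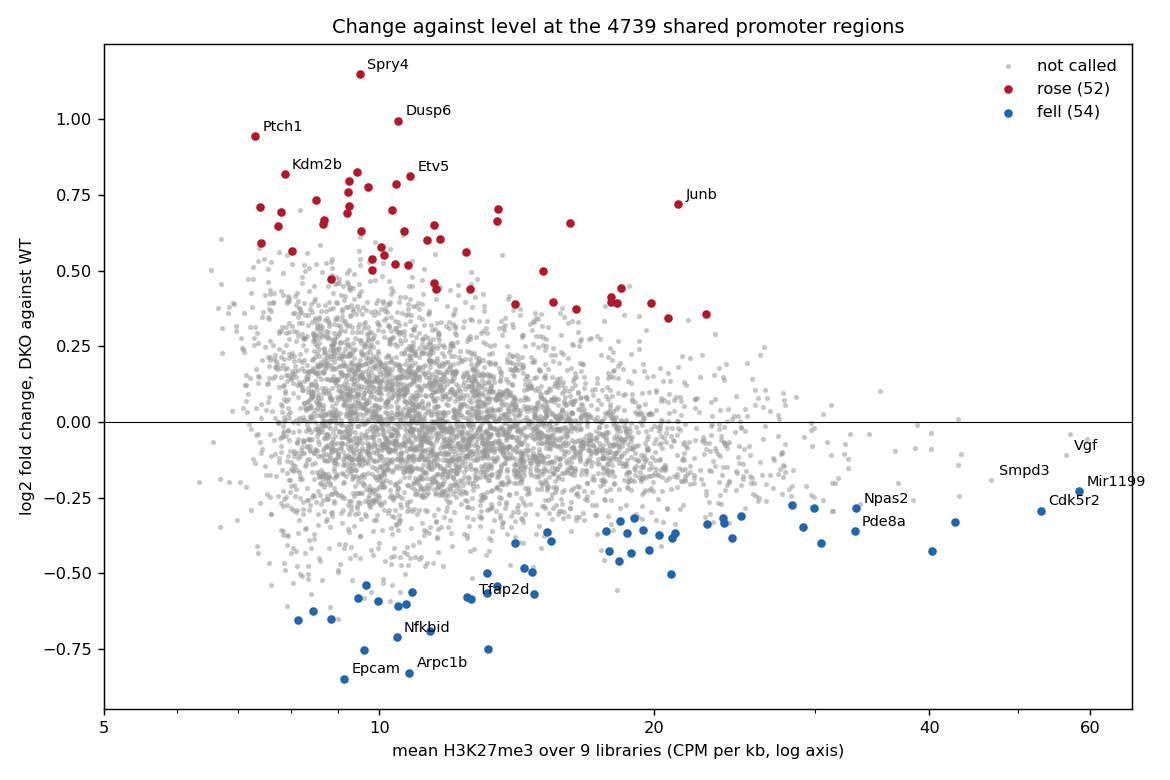
Log2 fold change of DKO against WT (y axis) against the mean H3K27me3 level over 9 libraries in CPM per kb (x axis, log scale) for the 4739 regions; red points rose (52), blue points fell (54), grey points were not called. Rises sit mostly at low levels (Spry4, Dusp6, Ptch1) and reach 1.15, while small falls are called at high levels (Mir1199, Cdk5r2).

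Genes of receptor tyrosine kinases and of the feedback loop that limits ERK signalling were represented by 51 regions, of which 5 rose and 1 fell. That is 11.8% called, beside 2.24% in the set, and the median log2 change of the 51 regions was 0.00. The share is not particular to this list. Among the lists described below, lineage factors had 12.8% called, chromatin genes 9.09% and homeobox factors 8.0%. The 5 rises were at Spry4, Dusp6, Etv5 and a pair of Spred1 regions, and the fall was at Igf2r, the imprinted gene of a receptor that clears IGF2. The list was drawn up with earlier results of these data known, so its count is not independent evidence. Within the libraries that carry neither Old nor New, 1 of the 51 passed, and within those that carry either, 5 passed, all higher. Over all the fits run, between 1 and 8 of the 51 rose and between 0 and 2 fell.

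Spry4, a Sprouty protein that inhibits signalling from receptor tyrosine kinases to ERK, showed the largest rise. The region (chr18:38598844-38601165) lies downstream of the nearest start by 250 bp. Its WT libraries held 13.2, 13.0, 24.2, 10.9 and 11.5 CPM and its DKO libraries 30.4, 28.7, 19.02 and 47.9 CPM. WT replicate 3 reached above DKO replicate 3, and the other 3 DKO libraries lay above all WT libraries. The level was 2.22-fold higher in DKO (log2 1.15, SE 0.18, adjusted p = 4.05e-07). The log2 change was 0.81 in the libraries without Old or New, where the call did not hold (adjusted p = 0.143), and 1.57 in those with either.

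Dusp6, a phosphatase that inactivates ERK, rose by 0.99 (SE 0.19, adjusted p = 8.96e-05). The 5 WT libraries had 8.83, 9.43, 20.0, 11.7 and 9.81 CPM at its region (chr10:99263477-99265114, 246 bp downstream of the start), and the 4 DKO libraries had 24.8, 28.7, 18.02 and 23.4 CPM. As at Spry4, WT replicate 3 was the high WT library and DKO replicate 3 the low DKO library, and they overlap. The change was 1.07 without Old or New and 0.95 with, and passed in both (adjusted p = 0.0185 and 0.0422). The CpG-bearing window printed above ends 197 bp before this region.

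Etv5, an ETS factor whose gene is induced by FGF and ERK signals, had 18.1, 18.3, 17.4, 12.5 and 12.5 CPM in WT and 28.7, 26.8, 24.7 and 28.4 CPM in DKO at a region 623 bp upstream of its start (chr16:22440342-22442267). The groups did not overlap. The rise was 0.81 (SE 0.17, adjusted p = 0.000708), and a DKO-specific region lies 310 bp away. It fell short of the threshold in libraries without Old or New (0.63, adjusted p = 0.36). Spred1, which inhibits activation of Raf by Ras, rose at a region over its start from 21.8 to 34.6 CPM (log2 0.70, adjusted p = 0.00138) and at one upstream from 16.9 to 26.9 CPM (log2 0.66, adjusted p = 0.0092). Spred1 and Igf2r were named after their values were seen, and Igf2r fell by 0.48 on the log2 scale (adjusted p = 0.0108).

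Signalling genes of the Wnt, TGF-beta, FGF, Hedgehog and Notch pathways held 75 regions, with 1 rise, 0 falls and a median change of -0.01. The rise was at Ptch1, the receptor that keeps Hedgehog signalling off in the absence of ligand and is itself a target of the pathway. Its region (chr13:63563538-63567579) covers 2 starts and held 18.98, 21.2, 28.9, 19.9 and 16.6 CPM in WT and 29.97, 54.1, 42.7 and 33.7 CPM in DKO. The groups did not overlap, and DKO exceeded WT 1.92-fold (log2 0.94, SE 0.15, adjusted p = 2.09e-06). The rise passed in libraries without Old or New (0.86) and with (1.08). Outside the list, Sufu, which restrains the GLI factors, rose by 0.55 (adjusted p = 0.0494), and the region upstream of Gli2, counted with the lineage factors, fell by 0.62 (adjusted p = 0.0485). Both were picked after their values were seen.

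**Figure D3:**
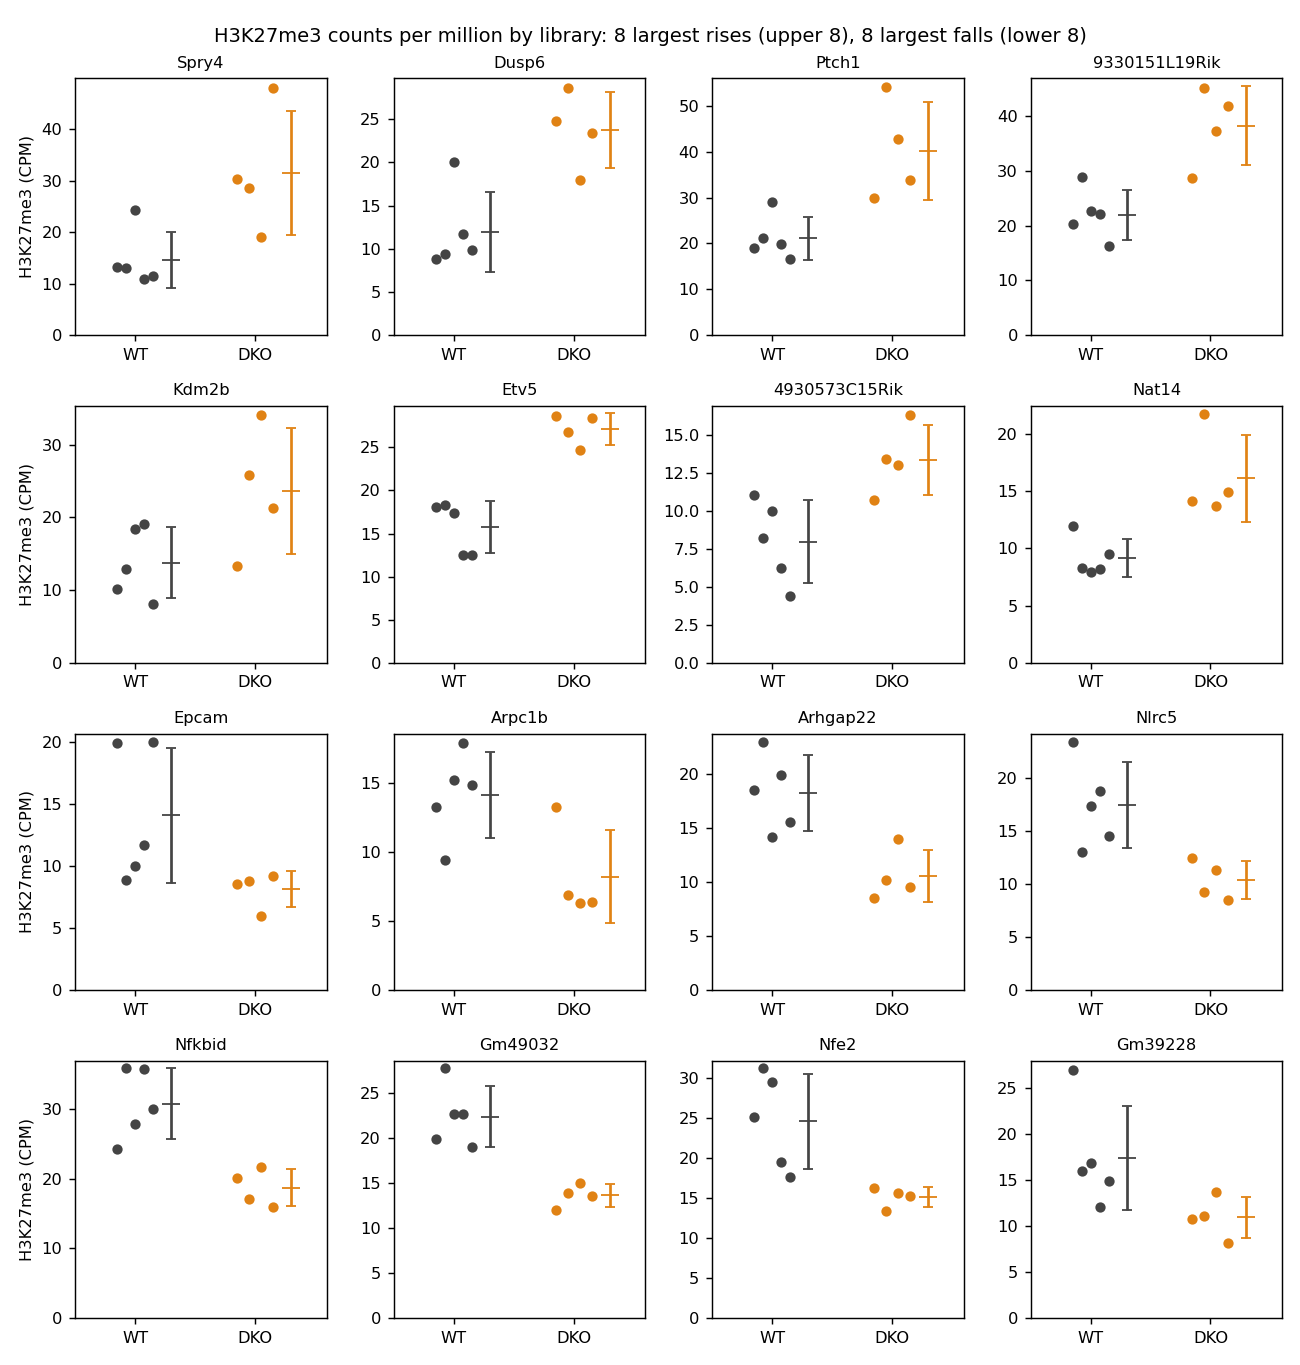
H3K27me3 in CPM (y axis, from 0) in each of 5 WT (grey) and 4 DKO (orange) libraries for the 8 largest rises (upper panels) and 8 largest falls (lower panels); bars show mean ± SD. At Ptch1, Etv5 and Nat14 each DKO point is above each WT point, while at Spry4 and Dusp6 WT replicate 3 overlaps DKO replicate 3.

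Transcription factors of lineage choice other than homeobox and bHLH factors held 78 regions, with 6 rises and 4 falls (median 0.00). Etv5, Junb, Prdm1, Sox4, Jun and Sall2 rose, and Gli2, Tfap2d, Nfic and Sox6 fell. The region of Junb, a component of AP-1, also touches the promoter of AC163703.1. It had 47.2, 41.8, 44.2, 33.1 and 42.9 CPM in WT and 62.9, 91.5, 58.0 and 64.6 CPM in DKO. Its groups were apart, with a log2 change of 0.72 (SE 0.12, adjusted p = 4.77e-06) that passed in libraries without Old or New (0.78) and with (0.69). Jun, another component of AP-1, rose by 0.39 (adjusted p = 0.0336), and both of the regions at Zfp36l1, a gene whose protein binds AU-rich elements, rose, by 0.41 and 0.37. The last were chosen after their values were seen.

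Homeobox factors held 25 regions, in which Pbx3 rose and Cux2 fell. Pbx3, a cofactor of HOX proteins, had 46.8, 50.7, 40.5, 51.9 and 46.7 CPM in WT and 57.8, 64.3, 66.1 and 61.0 CPM in DKO (log2 0.40, SE 0.12, adjusted p = 0.0322). Cux2, a factor of upper-layer cortical neurons, had 77.3, 68.9, 53.7, 56.5 and 68.6 CPM in WT and 49.2, 47.2, 49.0 and 47.6 CPM in DKO, a fall of 0.43 (SE 0.12, adjusted p = 0.0159). Neither pair of groups overlapped, and the DKO libraries of Cux2 had an SD of 1.05 CPM. Without 1 library the call was lost for Pbx3 (WT replicate 3 or 5, DKO replicate 2, 3 or 4; adjusted p from 0.053 to 0.127) and for Cux2 (WT replicate 5, DKO replicate 2 or 3; 0.0593 to 0.0715).

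Among 28 regions of bHLH factors, 1 fell and 0 rose. The fall was at Npas2, a partner of BMAL1 in the circadian clock, with 142, 159, 156, 154 and 148 CPM in WT and 116, 143, 114 and 126 CPM in DKO (log2 -0.29, SE 0.09, adjusted p = 0.0352). DKO replicate 2 lay within the WT range and the other 3 below it. The call was lost without any one of 7 libraries (all but WT replicate 1 and DKO replicate 2; adjusted p from 0.0624 to 0.178). Pluripotency and germline genes held 10 regions with 0 calls, at a median log2 difference of -0.10, and 3 of the 10 fell when WT replicate 1 was left out. The highest of them, downstream of the start of Klf4, differed by -0.33 (SE 0.13, adjusted p = 0.14), and by -0.41 without WT replicate 1, where it passed (adjusted p = 0.0331).

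Regions at genes of Polycomb and other chromatin complexes numbered 33, with 3 rises and 0 falls. Kdm2b, whose protein brings variant Polycomb repressive complex 1 to unmethylated CpG, held 10.2, 13.0, 18.4, 19.1 and 8.12 CPM in WT and 13.3, 25.9, 34.0 and 21.3 CPM in DKO (log2 0.82, SE 0.19, adjusted p = 0.00243). DKO replicate 1, the library of clone 4, lay within the WT range. The Kdm2b call was lost without DKO replicate 3 (adjusted p = 0.149) or WT replicate 5 (0.0528). It was also lost with DESeq2 (adjusted p = 0.237), with an edgeR term for replicate number (0.0641) and in libraries without Old or New (0.58). Arid1b, a subunit of the BAF remodelling complex, held 17.7, 37.1, 20.0, 21.8 and 16.2 CPM in WT and 33.0, 39.3, 39.4 and 33.7 CPM in DKO, a rise of 0.73 (SE 0.16, adjusted p = 0.000708). There WT replicate 2 was as high as the DKO libraries. Smarcc2, another BAF subunit, rose by 0.39 (adjusted p = 0.013). Over all the fits run, between 0 and 4 of the 33 rose and between 0 and 1 fell.

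**Figure D4:**
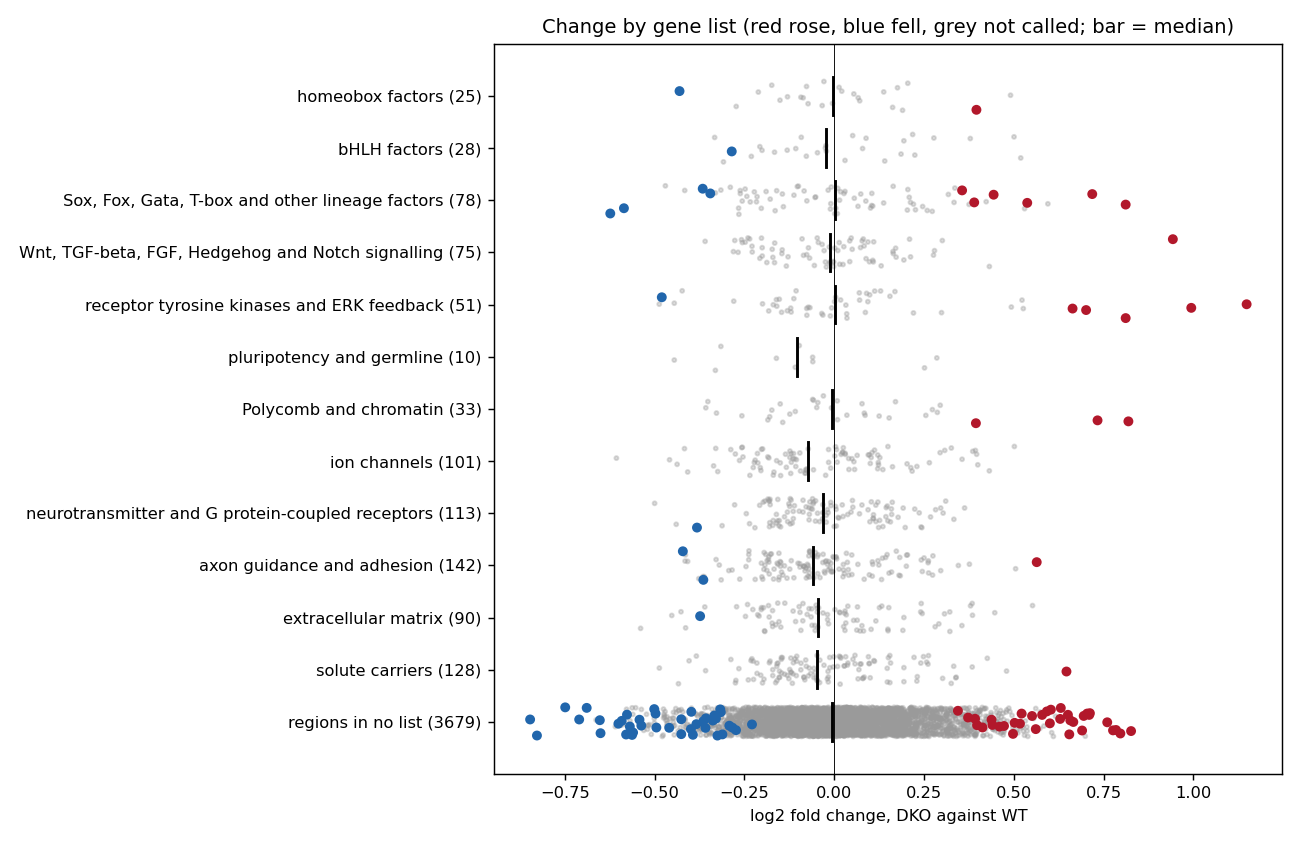
Log2 fold change of DKO against WT (x axis) for the regions of each gene list (y axis, number of regions in brackets); red points rose, blue points fell, grey points were not called and the black bar is the median. The lists of ERK feedback, chromatin genes and lineage factors show 5, 3 and 6 rises, ion channels show no call, and medians lie between -0.10 and 0.00.

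Lists of neuronal and surface genes had called shares near or under the 2.24% of the set. The shares were 0.885% for neurotransmitter and other receptors, 2.11% for axon guidance and adhesion and 1.11% for extracellular matrix. Their differences from the set were not tested. Ion channels had 101 regions with 0 calls (17 with an unadjusted p under 0.05 in edgeR) and a median of -0.07. The ion channel region of highest level, at Kcnn1, a calcium-activated potassium channel, held 173 ± 4.87 CPM (SD, n = 5) in WT and 162 ± 17.9 CPM (SD, n = 4) in DKO. Receptors for neurotransmitters and other G protein-coupled receptors had 113 regions with 1 fall, at Chrm3, the M3 muscarinic receptor. That region held 117, 117, 95.8, 125 and 98.7 CPM in WT and 86.5, 92.0, 75.1 and 87.3 CPM in DKO, without overlap (log2 -0.38, SE 0.10, adjusted p = 0.00827), and its call was lost without DKO replicate 3 (adjusted p = 0.0982).

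Axon guidance and adhesion genes had 142 regions, with 1 rise (Pcdha6) and 2 falls. The falls were at Amigo2, a leucine-rich adhesion protein, which held 58.0 ± 3.17 CPM (SD, n = 5) in WT and 43.5 ± 5.56 CPM (SD, n = 4) in DKO, and at Cadm2, a synaptic adhesion protein, with 81.2 ± 7.13 and 63.1 ± 3.55 CPM. Each had every DKO library below every WT library, with changes of -0.42 (SE 0.12, adjusted p = 0.0261) and -0.36 (SE 0.11, adjusted p = 0.0284). Both calls depended on single libraries: that of Amigo2 on WT replicate 5 and DKO replicates 3 and 4 (adjusted p from 0.0647 to 0.143 without 1 of them), and that of Cadm2 on WT replicate 5 and each DKO library (0.0525 to 0.11). Extracellular matrix genes had 90 regions with 1 fall, at the aggrecanase gene Adamts5 (109 ± 15.4 against 85.1 ± 4.96 CPM, log2 -0.37, SE 0.10, adjusted p = 0.0106). It was lost without DKO replicate 3 (adjusted p = 0.0872) or WT replicate 5 (0.0522).

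Solute carriers had 128 regions with 1 rise, upstream of Slc39a14, a zinc and manganese transporter (14.03 ± 5.52 against 22.1 ± 6.81 CPM, log2 0.65, SE 0.19, adjusted p = 0.0275). Its libraries overlapped, with 2 of 4 DKO libraries above the WT range, and the call did not survive removal of WT replicate 3, WT replicate 4, DKO replicate 2 or DKO replicate 4 (adjusted p from 0.0715 to 0.255). Among the other called regions chosen for naming, Pde8a, a phosphodiesterase of cAMP, held 153, 189, 206, 184 and 161 CPM in WT and 148, 141, 133 and 133 CPM in DKO, without overlap (log2 -0.36, SE 0.08, adjusted p = 0.00283). A region over Gnas and Gnasas1, an imprinted locus that encodes the stimulatory G protein alpha subunit, fell by 0.61 (SE 0.16, adjusted p = 0.0106), from 43.7, 31.8, 28.9, 31.2 and 31.5 CPM to 29.1, 21.7, 14.7 and 23.4 CPM. Without DKO replicate 3 it no longer passed (adjusted p = 0.185).

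The 1060 regions in at least 1 of the 13 lists had 17 rises and 14 falls, and the 3679 in no list had 35 rises and 40 falls. The unlisted regions include the largest falls, at Epcam and Arpc1b. Epcam, an epithelial adhesion protein present in ESCs, held 19.9, 8.84, 10.0, 11.7 and 20.0 CPM in WT and 8.56, 8.78, 6.01 and 9.23 CPM in DKO. Its region (chr17:87636863-87638112) lies 181 bp downstream of the nearest start among its promoter rows. The Epcam window printed above belongs to another start and lies 835 bp from the region. WT replicates 1 and 5 were high and the other WT libraries were close to the DKO libraries. The fall of 0.85 (SE 0.22, adjusted p = 0.0114) was lost without WT replicate 5 (adjusted p = 0.126) or DKO replicate 3 (0.116).

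Arpc1b, a subunit of the actin-nucleating ARP2/3 complex, held 13.2, 9.43, 15.3, 17.9 and 14.9 CPM in WT and 13.3, 6.93, 6.34 and 6.39 CPM in DKO (chr5:145114445-145115512). DKO replicate 1, the library of clone 4, was at the WT level, and the 3 libraries of clone 13 were below it. The fall of 0.83 (SE 0.22, adjusted p = 0.0133) was -0.33 in the libraries without Old or New, which include the clone 4 library, and -1.35 in those with. It was lost without WT replicate 4 or DKO replicate 2, 3 or 4 (adjusted p from 0.0642 to 0.114).

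Arhgap22, a GTPase-activating protein for Rac, held 18.5, 23.0, 14.2, 19.9 and 15.6 CPM in WT and 8.56, 10.2, 14.01 and 9.58 CPM in DKO, a fall of 0.75 (SE 0.20, adjusted p = 0.0126). Nlrc5, the transactivator of MHC class I genes, held 23.4, 13.0, 17.4, 18.7 and 14.5 CPM in WT and 12.4, 9.25, 11.3 and 8.52 CPM in DKO, also a fall of 0.75 (SE 0.20, adjusted p = 0.0144). In both the groups did not overlap, by a narrow margin. The calls were lost without WT replicate 2 or DKO replicate 1, 2 or 4 for Arhgap22 (adjusted p from 0.0508 to 0.0594) and without DKO replicate 2 or 4 for Nlrc5 (0.071 and 0.0727).

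A region shared by Nfkbid, an inhibitor of NF-kappaB of the IkB family, and Hcst, the adaptor DAP10, fell by 0.71 (SE 0.16, adjusted p = 0.0024). It held 24.3, 35.9, 27.9, 35.9 and 30.1 CPM in WT and 20.1, 17.1, 21.7 and 16.0 CPM in DKO. Each DKO library was below each WT library, and the call held without each single library but not in the libraries without Old or New (-0.64, adjusted p = 0.34). The remaining large falls were at the predicted genes Gm49032 (-0.69) and Gm39228 (-0.65) and at Nfe2, an erythroid factor (-0.65). Of these, Gm49032 was lost without WT replicate 2 (adjusted p = 0.0571), Nfe2 without any of replicates 2 and 3 of either genotype (0.0632 to 0.0841), and Gm39228 without any one of 8 libraries (all but WT replicate 4; 0.0511 to 0.186).

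Other large rises were at a region shared by Dnaaf2, a factor for assembly of ciliary dynein arms, and 9330151L19Rik (0.83, SE 0.15, adjusted p = 4.66e-05), at 4930573C15Rik (0.80, SE 0.22, adjusted p = 0.021) and at Nat14, an N-acetyltransferase family gene (0.78, SE 0.21, adjusted p = 0.0127). The Dnaaf2 region held 20.3, 28.9, 22.6, 22.2 and 16.2 CPM in WT and 28.7, 45.3, 37.4 and 41.9 CPM in DKO, and WT replicate 2 was just above DKO replicate 1. 4930573C15Rik was lost without WT replicate 4, WT replicate 5 or any clone 13 library (adjusted p from 0.0513 to 0.158), and Nat14 without DKO replicate 2 (0.131). Over the 30 called regions chosen for naming, the call held without each single library at 9: Spry4, Dusp6, Ptch1, Dnaaf2, Etv5, Junb, Arid1b, Nfkbid and Pde8a. Of these, Dusp6, Ptch1 and Junb also passed both in libraries with Old or New and in those without. In the libraries without Old or New, adjusted p was 0.383 at Arid1b, 0.278 at Dnaaf2 and 0.27 at Pde8a. Pde8a also missed in the libraries with either (0.0697) and with the WT replicates of one stem (0.134). With DESeq2, calls were lost at Kdm2b, Epcam, Arpc1b, Cdk5r2, Misp3, Slc39a14, 4930573C15Rik and Gm39228 (DESeq2 adjusted p from 0.0594 to 0.383).

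Direction varied with level. In the lowest of 5 equal groups by mean CPM per kb, 15 regions rose and 4 fell, with a median log2 change of 0.08, while in the highest 10 rose and 28 fell, with a median of -0.07. Across the set the Spearman correlation of log2 change with mean level was -0.23, a description over regions that share libraries. An offset fitted to level in each library left a smaller trend, with medians of 0.07 in the lowest group (12 rises, 3 falls) and -0.05 in the highest (14 rises, 17 falls). With library totals the highest group turned to 23 rises and 12 falls, and with scaling off chromosomes 6 and 11 it had 7 and 51. Single libraries moved its counts too, to 4 rises and 6 falls without DKO replicate 3, 2 and 16 without DKO replicate 2, 9 and 16 without DKO replicate 4, 7 and 17 without WT replicate 2, 4 and 13 without WT replicate 5, 5 and 26 without WT replicate 4, and 20 and 34 without WT replicate 1.

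Length and position went with the same split. Regions of 1 to 2 kb had 17 rises and 8 falls, and those of 4 to 5 kb had 4 rises and 19 falls. Regions covering a start had 23 rises and 36 falls, those downstream of the nearest start 22 and 14, and those upstream of it 7 and 4. Longer regions and those over a start also had higher levels per kb, and their separate parts in the split were not tested. The split by position did not hold throughout. Regions over a start turned to 54 rises and 41 falls without WT replicate 1, 14 and 8 without DKO replicate 3, 26 and 18 without DKO replicate 4, 51 and 20 with library totals, 13 and 9 in libraries with Old or New, and 3 and 1 in those without. Downstream regions had 13 rises and 19 falls with scaling off chromosomes 6 and 11, 9 and 10 without WT replicate 5, 12 and 12 without WT replicate 4, and 5 and 5 without DKO replicate 2.

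**Figure D5:**
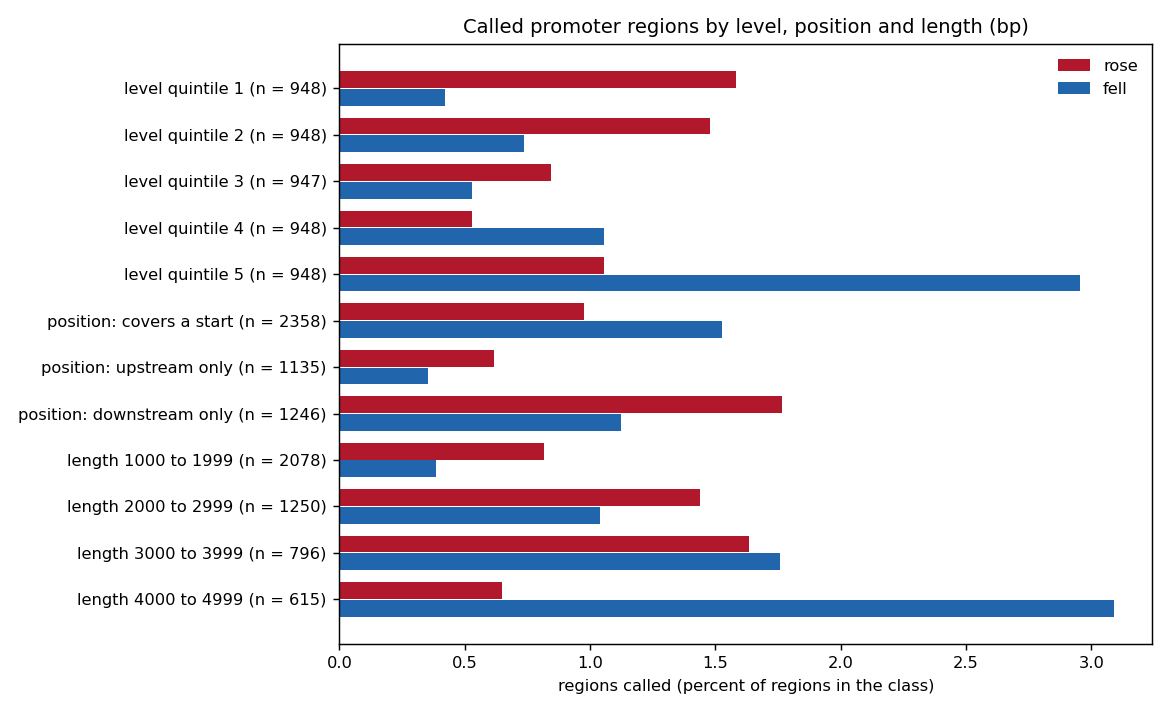
Share of regions called (x axis, percent of the class) as risen (red) or fallen (blue) by level group (1 lowest, 5 highest mean CPM per kb), position and length in bp. Upstream only and downstream only are set by the nearest start, for regions that cover no start. The lowest level group had 15 rises and 4 falls among 948 regions, and the highest 10 and 28.

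Nearby regions were compared as well. Within 10 kb of a region listed by the authors as specific to DKO, 32 promoter regions rose and 12 fell of 1838, against 20 and 42 of the 2901 farther away. Within 10 kb of a shared domain of 10 kb or more, 1 rose and 1 fell of 92. Both the DKO-specific list and the counts come from the same libraries, so the first split is a description. By CpG content, windows with an observed over expected ratio of 0.6 or more had 24 rises and 32 falls in 2025 regions, and windows under it 13 and 10 in 1172.

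Shared regions of the same length off promoters were counted for comparison. Of 4402 such regions on the same autosomes, 48 rose and 10 fell (1.32% called), with a median log2 change of 0.07. Their level was lower, with a median of 9.26 CPM per kb in WT, and within the level range of the lowest promoter group 21 rose and 3 fell of 2089. Of 411 shared regions of 10 kb or more, 187 fell and 3 rose. The differences between these classes were not tested.

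Promoter rows gave a second count over partly the same reads, in which a read that fell in several rows was not assigned. Of the 7508 promoter rows at the regions, 3424 passed the filter; 28 rose and 1 fell, 0.847% beside 0.628% of the 32647 rows tested (0.438% higher and 0.19% lower). The median log2 change was 0.05 against -0.01 over all rows. Of the 77 called regions with a tested row, 17 had a called row. The row of Dusp6 rose by 1.20 (adjusted p = 2.16e-05), that of Etv5 by 0.94 (adjusted p = 0.000515) and that of Slc39a14 by 0.98 (adjusted p = 0.0053). Cux2 was the one fall, by 0.87 (adjusted p = 0.0372). Rows of some other leading rises did not pass, with log2 differences of 0.70 at Ptch1 (adjusted p = 0.389), 0.39 at Junb (0.338) and 0.45 at 9330151L19Rik (0.682). The Junb region also touches the row of AC163703.1, which rose by 1.16 (edgeR adjusted p = 0.00015). None of the rows at the 8 largest falls passed. Their log2 differences included -0.87 at Epcam (edgeR adjusted p = 0.0855), -0.28 at Arhgap22 (0.586), -0.21 at Nlrc5 (0.76) and -0.33 at Nfe2 (0.514). The rows thus did not repeat the near-even split of rises and falls in the region counts. Because the reads are shared, these rows are no independent replicate of the region counts.

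Total H3 served as the background. Of 4370 regions with enough H3 counts, 1 was called, or 0.0229% beside 0.0211% of 18938 regions (edgeR; 217 of the 4370 had an unadjusted p under 0.05). It was at Agfg2, with 21 and 18 H3 counts in WT and 3 and 4 in DKO, and its H3K27me3 differed by -0.01 on the log2 scale. DESeq2 called 0. The regions that rose and fell in H3K27me3 had median H3 log2 changes of 0.05 and 0.06, and 1 of 51 risen and 3 of 54 fallen regions had an unadjusted p under 0.05 for H3. Low H3 counts at Epcam (13 and 14 in WT, 6 and 8 in DKO) and Arhgap22 (17 and 19, 5 and 12) are in the direction of their falls, with adjusted p of 0.849 and 0.715 for H3. At the fallen regions of Gnas and Gm49032, H3 went the other way (log2 0.72 and 0.46, edgeR adjusted p = 0.693 and 0.929). Among the rises, H3 was higher at Etv5 (log2 0.65, edgeR adjusted p = 0.816) and lower at Kdm2b (-0.57, 0.88). Relative to H3, the mark was not lower at Epcam and Arhgap22. The log2 ratio of H3K27me3 to H3 went from -0.61 in WT to -0.47 in DKO at Epcam and from -0.65 to -0.31 at Arhgap22. At the other regions among the 8 largest falls this ratio was lower in DKO, as at Arpc1b (0.11 in WT and -0.67 in DKO). At Etv5 it went from -0.53 to -0.36. A part of H3 in the falls and rises was not tested.

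The library sets were compared last. All 106 called regions had the same sign of change in libraries with and without the words Old or New, which the pooled call itself favours. Within the sets alone, 7 of the called regions passed in libraries without these words and 26 in those with. The sets also differ in DKO clone and WT stem, so these numbers cannot be assigned to the words. A model term for a genotype effect that differs between sets called 0 regions in the set and 0 of 40418 overall (edgeR; 147 regions of the set had an unadjusted p under 0.05). At the limits of the set, the shortest member, 1000 bp at Sox2ot, and the longest, 4997 bp at Gm42778, had log2 differences of 0.00 each, and those just outside, 999 bp at 1700007F19Rik and 5000 bp at Alk, had 0.25 and -0.04.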

How the data were processed

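H3K27me3 and total H3 were measured by ChIP-seq in 13 libraries. The deposited tables hold raw read counts per region or promoter row, which the authors made without normalization; promoter counts came from featureCounts 2.0.3 without strand and without assigning a read to several rows, per the file headers. The submitters' processing notes name Bowtie2, MACS2, bedtools, Subread and featureCounts, with build mm10, and give no roles. The sources used here do not say how regions were called. Column names carry the tag b6, whose meaning for reads of the CAST allele is not given either.

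WT and DKO counts were fitted together over all rows with edgeR 4.0.16 in R 4.3.3 (quasi-likelihood F test, two-sided, TMM scaling, filterByExpr with minimum count 10 and minimum total 15), and p-values were adjusted over all rows by Benjamini-Hochberg at 0.05. The SE is the log2 change divided by the root of F. CPM are counts over TMM-scaled totals. H3K27me3 over H3 used CPM of plain library totals over regions, with a pseudocount of 0.5 CPM. DESeq2 1.42.0 was an alternative. Python 3.11.15, pandas 2.3.3, numpy 2.4.6 and matplotlib 3.10.9 made summaries and figures. The tests were checked on simulated counts. Pairs of libraries differed by more than sampling noise, so none was counted as a copy.

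Named regions are the 8 largest rises and 8 largest falls among those passing, the 6 highest WT levels per kb, and per gene list the 2 of smallest p that passed or else the highest. The members and lists were chosen with earlier results of these data known. Sequences are RefSeq windows of GRCm38.p6. The result of 1 of the gene lists is not reported here.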

Additional observations from a re-analysis of the deposited data

Results flagged for a closer look

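In 8 of 74 groups of libraries checked (10.8%), 1 library stood far from the rest of its group; chance flags about 1 in 20 groups. WT replicate 3 was the high WT library at Spry4 (24.2 CPM, others 10.9 to 13.2) and at Dusp6 (20.0 CPM, others 8.83 to 11.7), and WT replicate 2 at Arid1b (37.1 CPM, others 16.2 to 21.8). WT replicate 1 was high at Cadm2 (93.6 CPM, others 76.0 to 80.1), at Gnas (43.7 CPM, others 28.9 to 31.8) and in the share of region counts that lay in the shared promoter regions (16.2%, others 14.5% to 14.9%). In DKO, replicate 2 was high at Nat14 (21.7 CPM, others 13.7 to 14.9), and replicate 1, of clone 4, was high at Arpc1b (13.3 CPM, others 6.34 to 6.93).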

How the results depend on the processing

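The number of shared promoter regions called (106) was 61 with DESeq2, 53 with the WT replicates of one stem, 35 in libraries with Old or New, 7 in those without, 66 for regions overlapping a promoter row by at least 50% and 59 for regions over a start; without single libraries it ran from 42 to 186. Rises (52) were 25, 21, 23, 5, 29 and 23 under the same choices in that order, 105 with library totals and 32 with scaling off chromosomes 6 and 11, and ran from 17 to 117 without single libraries. Falls (54) were 32 with one stem, 12 with Old or New, 2 without, 29 with library totals and 84 with scaling off chromosomes 6 and 11, and ran from 16 to 69. The promoter rows called (29) were 47 with a term for library sets and 15 among rows without overlap, and ran from 6 to 38. The H3 call (1) was 0 with DESeq2, 0 without a filter, and 0 without each single library.

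Library totals moved the median log2 change of the set from -0.01 to 0.056. Without chromosomes 6 and 11, the set held 21.6% (WT) and 22.2% (DKO) of H3K27me3 counts and 23.5% and 23.6% of H3 counts, and the median log2 ratio of H3K27me3 to H3 was -0.32 in WT and -0.25 in DKO. That ratio in DKO was -0.041 without DKO replicate 2 of H3 and, over single libraries left out, ran from -0.095 to -0.041. Differences near 0 changed sign at Gm13271 (0.0125 with library totals; 0.0187 without WT replicate 1; from -0.116 to 0.0237 over single libraries left out), at Vgf (0.0263 without Old or New) and at Gm10582 (0.0999 without Old or New, 0.026 with library totals, and from -0.0995 to 0.0205 over single libraries left out). The causes were not tested.

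Replicate numbers do not pair the samples: deviations of same-numbered libraries from their group means correlated at 0.03, 0.00, 0.04 and -0.08. The pairs that share the word Old or New correlated at 0.09 and 0.11, and a term for library sets gave 130 calls. With the number as a replicate block, 70 regions were called (27 rises) and 14 promoter rows. Among named regions, 441 alternative values of called regions kept their call and 159 did not, all in the same direction.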
